A study of Mus musculus with 8 samples.

Results

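The cytosolic ribosomal protein genes encode the proteins of the small (40S) and large (60S) subunits of the ribosome that translates nuclear mRNA. They were taken as the protein-coding genes whose symbol is Rpl or Rps followed by a number, with Rpsa and Rplp0 to Rplp2, and without the Rps6k kinases and pseudogenes. Of 86 such symbols, 1 (Rps19bp1) is not a ribosomal protein, 7 shared a locus with another gene and 2 (Rpl10l and Rps27rt) matched no locus. The remaining 76 genes, 29 of the small and 47 of the large subunit, had a locus of their own among the 35299 loci of the deposited table.

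Poly(A) RNA was sequenced from the heart of 8 C57BL/6J mice, 12 weeks old, 4 that had a sham operation (Sham) and 4 with a myocardial infarction (MI), in which heart muscle dies behind a blocked coronary artery. Tissue came from the border zone beside the infarct, or the matching region of sham hearts, 2 weeks after surgery. The labels name no transgene, allele or drug in either group. Groups follow the sample titles and the treatment field, although the source field of the MI samples reads Sham and some free-text descriptions conflict. The titles of the Sham samples carry a remark on reanalysis that MI titles lack, so origin of the data and infarction cannot be told apart. The comparison asks how the messenger RNAs of the ribosome itself stood in infarcted against sham hearts.

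Ribosomal proteins are made in near-equal numbers, since each ribosome takes up about the same amount of every one. Their mRNAs are abundant, and many start with a C followed by a run of pyrimidines, the terminal oligopyrimidine (TOP) motif, through which LARP1 and the kinase mTORC1 set their translation. A few members have a paralog with a narrower pattern of expression. The best known in muscle is RPL3L, which is restricted to heart and skeletal muscle and can take the place of RPL3, a protein near the site where peptide bonds form.

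The sequences around the start show these runs, and are given for 2 members with long pyrimidine runs and for the called members (defined below) that had an entry. Each line runs from 10 bases before to 20 bases from the RefSeq transcript start on GRCm38.p6, 5′ to 3′ on the coding strand, with the longest pyrimidine run in capitals. Rpl3l has 2 annotated starts.
Rps6 (chr4:86857348-86857377, minus strand): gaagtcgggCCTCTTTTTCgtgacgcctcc
Rpl7a (chr2:26910797-26910826, plus strand): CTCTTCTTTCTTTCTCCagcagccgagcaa
Rps12 (chr10:23787190-23787219, minus strand): tcatgcggccaccgccggCCTTTTCCCCTg
Rpl39 (chrX:37085203-37085232, minus strand): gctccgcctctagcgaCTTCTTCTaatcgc
Rps2 (chr17:24720053-24720082, plus strand): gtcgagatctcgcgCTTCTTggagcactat
Rpl3l, first start (chr17:24727816-24727845, plus strand): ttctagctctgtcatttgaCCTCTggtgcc
Rpl3l, second start (chr17:24732675-24732704, plus strand): caacagctacagtgCCCCaaatgtcctgaa

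In Rps6 the run covers the annotated start, whereas in Rps12, Rpl39 and Rps2 it began at bases 5 to 9 of the transcript, and neither Rpl3l window held a run longer than 5 bases. Of the 76 members, 59 had an entry in the promoter table. A run of at least 7 pyrimidines in the 30-base window was present in 54.2% of these members, against 20.5% of 27025 gene symbols, and the median longest run was 7 against 5 bases. In the 300-base promoter (250 bases before and 50 after the start, both strands), the ETS-family core CCGGAAG was present in 42.4% of members against 9.93% of all symbols. The E-box CACGTG was present in 8.47% against 8.09%. These letters describe the windows and show no bound factor.

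With the deposited scaling of the libraries, few ribosomal protein mRNAs differed between infarcted and sham hearts beyond the spread between hearts. Scaled to the library total, 62 of the 76 rose and 1 fell, where 44.5% of all loci rose and 7.74% fell. A larger share of members than of all loci was thus called higher, while the median log2 difference was alike (0.30 for members and 0.29 for all loci). Levels are normalised reads, the deposited read count per locus after scaling for library depth, as mean ± SD of 4 hearts. A member was called where the limma adjusted p (Benjamini-Hochberg over all 19186 tested loci) was under 0.05, and log2 differences (MI minus Sham, on log2 of the level plus 1) carry their standard error. Of the 76 members, 5 were called (6.58%), against 40.9% of all tested loci, 46.2% of loci named as protein-coding genes and 45.3% of loci with a mean of at least 1000 normalised reads. Rpl3, Rpl39 and Rps12 rose (3 members, where 20.8% of all loci rose), and Rpl3l and Rps2 fell (2 members, where 20.1% of all loci fell). All 76 passed the filter of a mean of at least 10 normalised reads, so no member was left out. The read-based tests edgeR and DESeq2, which called 41.4% and 44.0% of all loci, called the same 5 members in the same directions.

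The median member differed by -0.01 on the log2 scale, with the middle 50% between -0.08 and 0.07, and the median of all tested loci was -0.02. In 70 of the 76 members (92.1%) the difference was smaller than 0.25 in either direction. The same held for 41.1% of all loci and for 54.4% of loci with a mean of at least 1000 normalised reads. The hearts of the 2 groups did not overlap in 3 members (3.95%), against 39.6% of all loci. These were Rpl3, Rpl3l and Rps2. The median standard error of a member was 0.093.

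**Figure D1:**
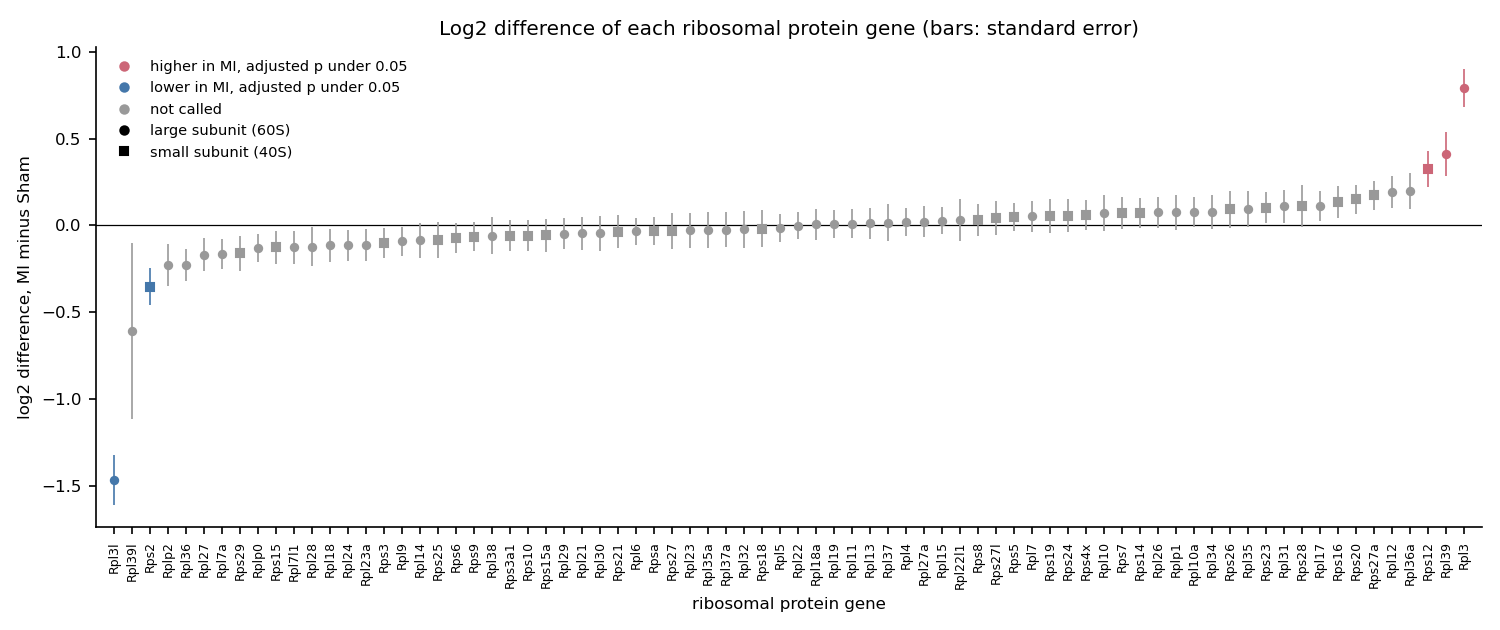
Log2 difference (MI minus Sham, vertical axis) of each of the 76 ribosomal protein genes (horizontal axis, in order of the difference), with standard errors as bars, squares for the small and circles for the large subunit. Most points lie within 0.25 of 0, and the called genes Rpl3l and Rps2 stand at the low end and Rps12, Rpl39 and Rpl3 at the high end.

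Rpl3l, the muscle paralog of Rpl3 (mm9 chromosome 17, 24862929 to 24873090), had the lowest log2 difference of the members. The Sham hearts held 34367, 30861, 39471 and 34351 normalised reads, and the MI hearts 10526, 17188, 10863 and 12572. Every MI heart was below every Sham heart, and MI replicate 2 was the highest of the MI hearts. The mean went from 34763 ± 3546 to 12787 ± 3068, a log2 difference of -1.47 ± 0.14 (limma adjusted p = 4.03e-05). The call held in each of the 8 fits that left out 1 heart.

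Rpl3, the widely expressed counterpart (mm9 chromosome 15, 79908225 to 79913765), went the other way. Its levels were 24737, 21340, 22593 and 19081 in Sham and 38228, 31099, 43347 and 39532 in MI. The groups did not overlap, and MI replicate 2 was here the lowest of the MI hearts. The mean went from 21938 ± 2365 to 38052 ± 5119, a log2 difference of 0.79 ± 0.11 (limma adjusted p = 3.37e-04), again called in all 8 fits that left out 1 heart.

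Both genes were set on a common scale, per kilobase of transcript (1351 bases for Rpl3, 1375 for Rpl3l). By counted reads, the paralog was the more abundant of the pair in Sham and the less abundant in MI. Of the transcript windows of Rpl3 (described below), 79.4% also occur in a transcript of another gene, against 0 for Rpl3l. How reads from such windows were counted is not given. The level of Rpl3, the order of the pair and the share are uncertain to that extent, and its effect was not tested. The level of Rpl3l per kilobase went from 25282 ± 2579 to 9300 ± 2231 and that of Rpl3 from 16238 ± 1751 to 28165 ± 3789. Rpl3l made up 57.7%, 58.7%, 63.2% and 63.9% of the pair in the Sham hearts and 21.3%, 35.2%, 19.8% and 23.8% in the MI hearts. The share fell from 60.9% ± 3.12 to 25.01% ± 6.99 with no overlap. Since Rpl3 and Rpl3l were each already seen not to overlap, in opposite directions, the separation of the share was fixed in advance. Its 2-sided exact permutation p (0.0286, the lowest that this number of hearts allows, and 0.0357 adjusted over 5 tests) therefore adds no support. These per-kilobase measures and the comparison with heart muscle markers below were chosen after the levels of both genes had been seen.

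The summed level of both genes, with the same limit on the reads of Rpl3, overlapped between the groups. It was 43304, 38240, 45429 and 39106 normalised reads per kilobase in Sham and 35952, 35520, 39986 and 38404 in MI. The means were 41520 ± 3418 and 37465 ± 2106 (exact permutation p = 0.143, also after adjustment), so the difference of the sum was not beyond the spread between hearts.

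**Figure D2:**
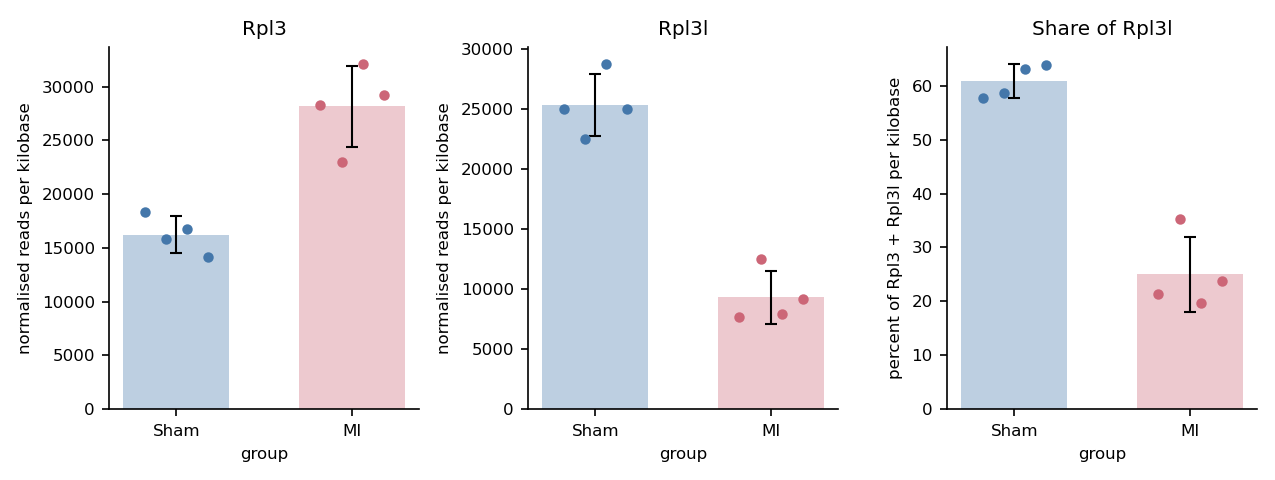
Normalised reads per kilobase of Rpl3 (left) and Rpl3l (middle), and Rpl3l as a percent of both (right), by group, with bars for the mean, error bars for the SD and 1 point per heart (n = 4). By counted reads, Rpl3 is higher in all MI hearts, Rpl3l is lower, and the share of Rpl3l goes from 60.9% to 25.01%.

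Ribosomes of cardiomyocytes are the main place of RPL3L in the heart, and markers of cardiomyocytes moved with it. In such bulk samples, fewer cells of a type and less RNA per cell cannot be told apart. Of 10 listed markers 7 had a locus of their own, and 6 of these fell (median log2 difference -0.67). Scaled to the library total, 4 fell (median -0.37). With the deposited scaling the summed level was 6054150 to 7030310 normalised reads in Sham and 3683260 to 4737280 in MI, and none of the 7 was at 0. The mean log2 level of the 7 markers differed by -0.59 ± 0.10 (SE). The 7 markers themselves ranged from -0.97 to -0.10. The log2 level of Rpl3l minus that mean, a measure chosen after the values were seen, differed by -0.87 ± 0.09 between the groups (exact permutation p = 0.0286, 0.0357 adjusted over 5 tests). The values were -4.15, -4.23, -4.10 and -4.20 in Sham and -5.10, -4.79, -5.19 and -5.09 in MI, and did not overlap. The 5 tests include those of Rpl3, Rpl3l and their share, whose outcome was fixed, so the adjusted p carries little weight. The part of cardiomyocyte number in the fall of Rpl3l was not tested.

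MI replicate 2, with the highest Rpl3l and the lowest Rpl3 of the MI hearts, also had the highest mean log2 level of these cardiomyocyte markers among them, 18.86 against 18.46 to 18.71. The corresponding Sham values were 19.15 to 19.37. On the leading principal component of all tested loci it stood at 34.8, and the other MI hearts at 62.4 to 63.2.

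With the deposited scaling, markers of several other cell types were higher, though not of all. All 10 fibroblast markers rose (median log2 difference 2.17, summed level 123339 to 179555 in Sham and 641397 to 991302 in MI), as did all 10 tested markers of macrophages and monocytes (median 0.998, 21236 to 30638 and 39970 to 51282). Of the neutrophil markers 4 of 5 tested rose (353 to 691 and 954 to 3269), while Mpo, Elane and Ngp were below the filter and Elane was at 0 in all Sham hearts. Of T and NK cell markers 8 of 9 rose (208 to 287 and 498 to 754), of B cell markers 6 of 7 (276 to 460 and 429 to 2367), and of cycling-cell markers 6 of 8 (6442 to 9252 and 10380 to 14895). Of smooth muscle and pericyte markers 5 of 9 rose (141884 to 164692 and 149460 to 184841), but this list went both ways. Its log2 differences ran from -0.32 to 1.25, with 6 of the 9 positive and 0 called lower. The 8 endothelial markers had a median difference of 0.17 with no limma call (2 with an unadjusted p under 0.05, summed levels 128906 to 172281 and 145681 to 170063). Scaled to the library total, where 44.5% of all loci rose, 6 of the 8 endothelial markers rose (median 0.48). For erythroid cells only Alas2 and Slc4a1 had their own locus, of which 1 fell (0 with the library total). Their median log2 difference was -0.83, with summed levels of 2516 to 5764 and 1719 to 3318. The part of these cell types in the results for Rpl3 and the other members was not tested.

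Ratios of paralogs within a heart do not depend on library scaling. The Rpl3l to Rpl3 ratio was 1.39 to 1.80 in Sham and 0.251 to 0.553 in MI, a log2 difference of -2.26 ± 0.27. Its exact permutation p was 0.0286, and 0.143 adjusted over 5 testable pairs, which this design cannot bring lower for a single pair. As with the share, separation of this ratio was fixed by the levels of both genes, so its p adds no support. The limit on the reads of Rpl3 applies here too. For Rpl22l1 to Rpl22, a pair of RNA-binding large-subunit proteins, the ratio was 0.134 to 0.157 in Sham and 0.132 to 0.165 in MI (0.03 ± 0.09, exact p = 0.743). For Rps27l to Rps27 it was 0.650 to 0.723 and 0.678 to 0.772 (0.08 ± 0.05, exact p = 0.200). For Rpl7l1 to Rpl7 it was 0.143 to 0.157 and 0.120 to 0.157 (-0.18 ± 0.10, exact p = 0.114). In these 3 pairs the groups overlapped, and their differences from the Rpl3 pair were not tested.

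Rpl39l, the paralog of Rpl39 known from the testis, was close to the detection limit. It held 20.3, 6.83, 13.6 and 41.0 normalised reads in Sham and 10.6, 7.41, 8.24 and 20.1 in MI. Here 3 reads are worth 3.41 to 4.73 normalised reads in Sham and 1.99 to 2.62 in the deeper MI libraries. Its log2 difference was -0.61 ± 0.51 (limma adjusted p = 0.368), and the ratio to Rpl39 differed by -1.02 ± 0.61 (exact p = 0.171), with overlapping groups. Of 8 listed pairs, 3 could not be formed because 1 member had no usable locus of its own.

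Rps2, a small-subunit protein at the entry of the mRNA channel (mm9 chromosome 17, 24857054 to 24859110), was the most abundant member per kilobase in Sham. It held 84892, 73582, 100485 and 81311 normalised reads in Sham and 58517, 71050, 65199 and 70738 in MI. The groups did not overlap, but the highest MI heart was close to the lowest Sham heart. The mean went from 85067 ± 11310 to 66376 ± 5888, a log2 difference of -0.35 ± 0.11 (limma adjusted p = 0.0209). The call was lost without MI replicate 1 (adjusted p = 0.0552) or MI replicate 3 (0.0515), and with scaling to the library total (-0.05) or to the total outside the mitochondrial genome (-0.16).

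Rpl3l and Rps2 are neighbours on the same strand, 3819 bases apart. Between them lies Ndufb10, a subunit of respiratory complex I on the opposite strand, which fell by 0.64 on the log2 scale (-0.64 ± 0.11, limma adjusted p = 0.00146) and overlaps the end of the Rps2 locus by 98 bases. Since it is not given whether counting used the strand, reads in that overlap cannot be assigned. Msrb1, a methionine sulfoxide reductase gene 497 bases beyond Rpl3l, differed by 0.05 ± 0.11 (adjusted p = 0.738).

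Rpl39, a small basic protein of the peptide exit tunnel (mm9 chromosome X, 34378982 to 34625179), held 5823, 5077, 7126 and 5269 normalised reads in Sham and 7426, 6516, 9290 and 7660 in MI. The groups overlapped through Sham replicate 3. The mean went from 5824 ± 924 to 7723 ± 1155, a log2 difference of 0.41 ± 0.13 (limma adjusted p = 0.0251). Its locus spans far more than the gene because an assembled transcript extends it across neighbouring genes, but its exons total only 433 bases. Of these neighbours Sept6 rose by 0.39 ± 0.10 (adjusted p = 0.00818), while Ube2a (-0.21 ± 0.08), C330007P06Rik (-0.11 ± 0.06) and Nkrf (0.15 ± 0.10) were not called. Whether reads of these neighbours entered the count of Rpl39 was not tested. The call was lost without Sham replicate 2 (0.0690) or 4 (0.0673), or MI replicate 3 (0.0698) or 4 (0.0519).

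Rps12, a small-subunit protein (mm9 chromosome 10, 23498298 to 23507006), held 21949, 18883, 23950 and 18037 normalised reads in Sham and 25939, 22731, 28292 and 26520 in MI. Here too the groups overlapped, at MI replicate 2 and Sham replicate 3. The mean went from 20705 ± 2740 to 25870 ± 2320, a log2 difference of 0.33 ± 0.10 (limma adjusted p = 0.0266). It passed in 3 of the 8 fits that left out 1 heart, and missed the threshold without Sham replicate 2 (0.0717) or 4 (0.0773) or MI replicate 1 (0.0551), 3 (0.0774) or 4 (0.0634).

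The 71 members that were not called ran from -0.61 (Rpl39l) to 0.20 (Rpl36a). Rpl36, picked out here after its value was seen, came nearest to the threshold (-0.23 ± 0.09, adjusted p = 0.0743). By subunit, there were 1 rise and 1 fall among 29 small-subunit genes (median log2 difference 0.03) and 2 rises and 1 fall among 47 large-subunit genes (-0.02). Both ribosomal proteins outside the symbol rule that had a locus, Fau, which encodes a ubiquitin-like protein fused to RPS30, and Rack1, a scaffold protein on the small subunit, differed by 0.10 ± 0.10 and 0.03 ± 0.08 (adjusted p = 0.481 and 0.763).

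Per kilobase of transcript, Rplp1, Rps2, Rplp0, Rps15 and Rplp2 had the highest levels over all hearts. Rplp0, Rplp1 and Rplp2 form the stalk of the large subunit, which recruits elongation factors. Rplp1 held 75007 ± 9306 normalised reads per kilobase in Sham and 78710 ± 6447 in MI. Rplp0 held 56363 ± 4209 and 51535 ± 3275, and Rplp2 52566 ± 8591 and 44689 ± 5183. Their log2 differences between the groups were 0.07 ± 0.10, -0.13 ± 0.08 and -0.23 ± 0.12, none of them called (adjusted p = 0.582, 0.229 and 0.161).

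The lowest levels per kilobase were those of Rpl39l, Rpl35, Rpl7l1, Rps20 and Rpl22l1. Rps20 was divided by an annotated transcript of 3706 bases, long for a ribosomal protein, and held 14336 ± 1140 and 15916 ± 1448 normalised reads before division by length. Rpl3l moved from rank 46 of 76 per kilobase in Sham to rank 70 in MI, and Rpl3 from rank 64 to rank 39. Across members the Spearman correlation of level per kilobase with the log2 difference was -0.25 (n = 76 genes measured in the same 8 libraries), given as a description.

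Several members serve as reference genes in quantitative PCR of heart tissue. Rplp0 is described above. Rps18 held 19805 ± 2970 normalised reads in Sham and 19427 ± 1481 in MI (-0.02 ± 0.11), and Rpl32 held 14320 ± 2062 and 14034 ± 1250 (-0.02 ± 0.11). Rpl4 held 58961 ± 4334 and 59822 ± 4266 (0.02 ± 0.08), Rpl19 29035 ± 2409 and 29175 ± 1908 (0.01 ± 0.08), and Rpl27 15336 ± 1727 and 13619 ± 1175 (-0.17 ± 0.09). Scaled to the library total, all 6 were positive, between 0.14 (Rpl27) and 0.33 (Rpl4). All but Rpl27 were then called higher (limma adjusted p from 0.00331 for Rpl19 to 0.0284 for Rpl32), where 44.5% of all loci rose. Upper-quartile scaling called Rplp0 (limma adjusted p = 0.0495) and Rpl27 (0.0484) lower, where 25.1% of all loci fell. None of the 6 was called by limma with the deposited scaling, and a p that misses the threshold does not show equal levels. Of all 18 tested reference genes, these included, 4 rose and 2 fell (22.2% and 11.1%), where 20.8% of all loci rose and 20.1% fell. The share that rose was thus near that of all loci. With the library total 15 rose (83.3%) and 0 fell, where 44.5% and 7.74% of all loci did. The largest rises with the deposited scaling were those of Gusb (0.53 ± 0.10), B2m (0.50 ± 0.16) and Actb (0.50 ± 0.17). B2m and Actb were each called in 3 of the 8 fits that left out 1 heart.

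Members moved together from heart to heart within a group. Over the 73 members other than Rpl3, Rpl3l and Rpl39l, the median log2 level relative to the Sham mean was 0.06, -0.13, 0.19 and -0.11 in Sham replicates 1 to 4, and -0.08, -0.12, 0.11 and 0.06 in MI replicates 1 to 4. All 73 lay above the Sham mean in Sham replicate 3 and 0 of 73 in Sham replicate 2, and 72 of 73 were highest in Sham replicate 3 among the Sham hearts. In MI, 53 of 73 were highest in replicate 3. The same medians over all tested loci ran from -0.04 to 0.03. With values scaled by size factors, a median over all loci can stay near 0 while sets of genes shift. Whether other sets of genes moved in the same way was not tested. The median coefficient of variation of a member was 11.0% within Sham and 8.59% within MI, against 8.69% and 7.94% for tested loci with a mean of at least 1000.

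**Figure D3:**
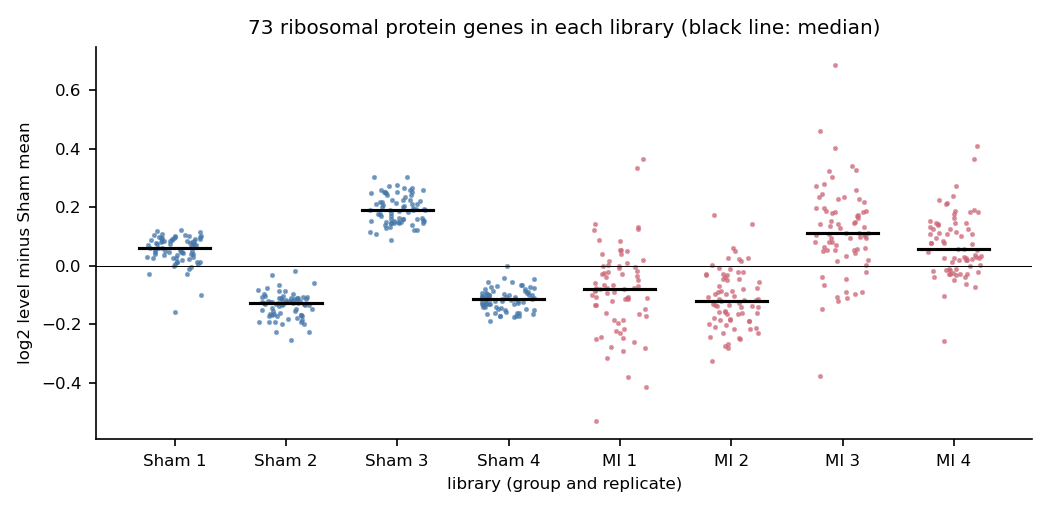
Log2 level minus the Sham mean (vertical axis) of 73 ribosomal protein genes, 1 point per gene, in each of the 8 libraries (horizontal axis), with the median as a black line. The genes shift together by library, from a median of -0.13 in Sham replicate 2 to 0.19 in Sham replicate 3.

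The direction of the whole group depended on how libraries were scaled. The libraries held 108.3 to 160.7 M reads in Sham and 165.5 to 190.2 M in MI, so every MI library was deeper than every Sham library. The effect of this difference in depth was not tested. Of these reads the mitochondrial genome took 29.2% to 32.3% in Sham and 23.8% to 26.1% in MI. The 76 members took 0.933% to 1.07% of all reads in Sham and 1.09% to 1.32% in MI, and 1.34% to 1.57% and 1.47% to 1.74% of reads outside the mitochondrial genome. Scaling to the library total, which gave 62 rises and 1 fall, moved the median of all tested loci from -0.02 to 0.29. Scaled to the total outside the mitochondrial genome, 31 rose and 1 fell, with medians of 0.18 for members and 0.17 for all loci, of which 33.2% rose and 11.1% fell. Rpl3 stayed higher and Rpl3l lower under both, by 1.10 and -1.16 with the library total. Directions elsewhere in the text are those of the deposited scaling. With the deposited size factors the members summed to 1568278 to 1945725 normalised reads in Sham and 1571560 to 1813685 in MI, which overlap. TMM scaling gave 3 rises and 2 falls (21.6% and 19.1% of all loci), and upper-quartile scaling 3 and 6 (19.4% and 25.1%).

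**Figure D4:**
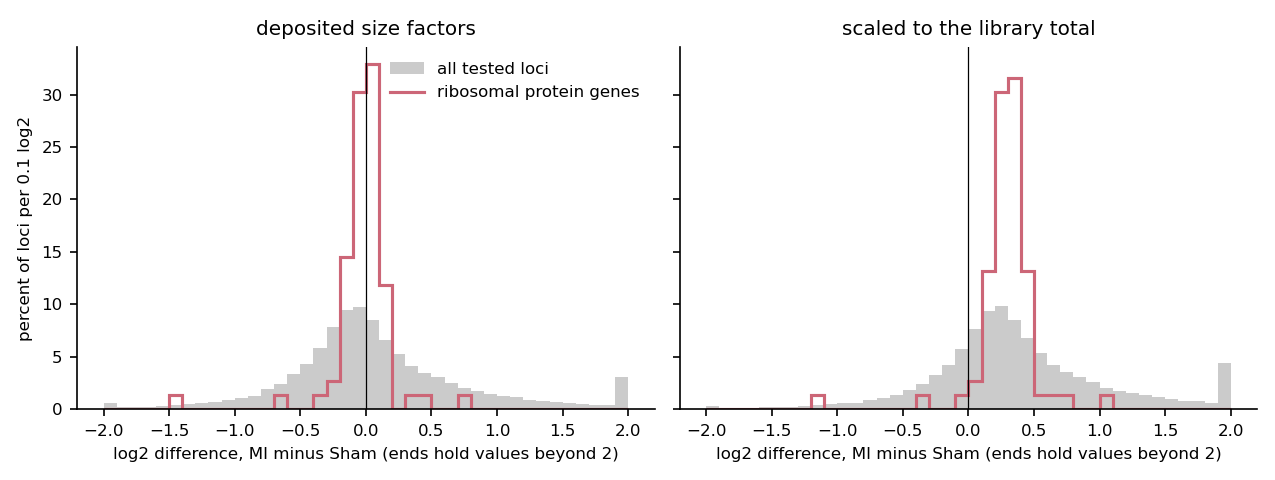
Percent of loci per 0.1-wide bin of the log2 difference (MI minus Sham) for all tested loci (grey) and the 76 ribosomal protein genes (outline), with the deposited size factors (left) and scaled to the library total (right). The members form a narrow peak at the centre of the broad grey distribution, and both shift together, the members' median from -0.01 to 0.30.

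The counts in the following lists stand beside 20.8% of all tested loci that rose and 20.1% that fell with the deposited scaling, and 44.5% and 7.74% with the library total. Elongation and termination factors work on the assembled ribosome, and 2 of the 13 tested rose and 3 fell (15.4% and 23.1%; 9 and 1 with the library total), shares near those of all loci with the deposited scaling. Eef1a1 and Eef1a2 encode the paralogous factors that bring aminoacyl-tRNA to the ribosome, the latter known from muscle and neurons. Eef1a1 held 104476, 94665, 103560 and 87597 normalised reads in Sham and 175543, 143210, 189307 and 187928 in MI (0.83 ± 0.11, limma adjusted p = 1.98e-04). Eef1a2 held 183461, 161731, 210858 and 177744 in Sham and 104700, 129233, 122117 and 136380 in MI (-0.58 ± 0.11, adjusted p = 0.00197). The groups overlapped for neither gene. Eef1a1 and Eef1a2 thus moved in opposite directions, as Rpl3 and Rpl3l did, and also under scaling to the library total (1.14 and -0.27). Eif5a2 also rose (0.58 ± 0.15), and Eef1d (-0.39 ± 0.08) and Eif5a (-0.24 ± 0.09) fell. The call of Eif5a was lost with TMM scaling (adjusted p = 0.0557) and in 6 of the 8 fits that left out 1 heart, and its difference was positive with the library total.

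Among translation initiation factors 1 of 32 tested rose and 8 fell (3.13% and 25% of the list), with a median log2 difference of -0.16, which turned to 0.15 with 15 rises and 0 falls under scaling to the library total. Pabpc1, the poly(A)-binding protein and itself the product of a TOP mRNA, rose by 0.59 ± 0.09 (limma adjusted p = 7.19e-04). The largest falls were those of Eif1, which keeps start-codon choice accurate (-0.47 ± 0.10), the helicase Eif4a2 (-0.36 ± 0.08) and the cap-binding protein Eif4e (-0.34 ± 0.10).

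Ribosomes are assembled in the nucleolus. Of 44 tested assembly factors 1 rose and 4 fell (median -0.02; 35 and 0 with the library total), with Rrp12 higher (0.46 ± 0.09) and Emg1 (-0.41 ± 0.10), Dkc1 (-0.32 ± 0.09) and Rrp9 (-0.31 ± 0.10, called in 4 of the 8 fits that left out 1 heart) lower. Of 14 tested genes of RNA polymerase I, which transcribes ribosomal RNA, and its factors 3 fell (21.4%, against 20.1% of all loci): the largest subunit Polr1a (-0.57 ± 0.10), the initiation factor Rrn3 (-0.24 ± 0.06) and Polr1b (-0.19 ± 0.06), the last pair positive with the library total. Polr1b lost its call in each of the 8 fits that left out 1 heart. With that scaling 11 of the 14 rose and 1 fell. Poly(A) libraries do not measure ribosomal RNA itself.

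Of 21 regulators of TOP mRNAs and mTORC1, 2 rose and 8 fell (9.52% and 38.1%, median -0.19), against 6 and 0 with the library total (median 0.12). Myc, a transcription factor that drives ribosome production, held 346, 410, 439 and 334 normalised reads in Sham and 780, 848, 996 and 997 in MI (1.24 ± 0.13, limma adjusted p = 5.13e-05), with no overlap. The kinase gene Rps6ka1 rose by 0.55 ± 0.13. Tsc2, a brake on mTORC1, fell (-0.44 ± 0.07), as did Eif4ebp2 (-0.39 ± 0.06) and Max, the partner of Myc (-0.39 ± 0.11). Smaller falls were those of Mtor (-0.23 ± 0.08) and Larp1 (-0.20 ± 0.07), both positive with the library total and each called in 2 of the 8 fits that left out 1 heart, and Eif4ebp1 was not called (0.14 ± 0.09, adjusted p = 0.264).

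Other RNAs with a TOP start were not uniform. Of 11 tested, 5 rose and 1 fell (10 and 0 with the library total). Vim, the filament protein of mesenchymal cells, rose by 1.40 ± 0.15, and the snoRNA host genes Snhg5 and Gas5 by 0.72 ± 0.12 and 0.63 ± 0.12. Naca, a chaperone at the exit tunnel, fell (-0.37 ± 0.07). Tpt1 was listed at 0 in all 8 libraries, and whether its reads were left out in counting was not tested.

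The ribosomal proteins of mitochondria, encoded by a separate set of nuclear genes, were mostly lower. Of 78 such symbols 65 had a locus of their own and 54 of these fell, with a median log2 difference of -0.40. Scaled to the library total 15 fell and 3 rose (median -0.10). The largest falls were in Mrpl39 (-0.75 ± 0.07, limma adjusted p = 2.68e-05), Mrpl14 (-0.75 ± 0.12) and Mrps35 (-0.70 ± 0.08). Mrpl39 held 8655, 8948, 9048 and 8760 normalised reads in Sham and 4805, 5729, 5375 and 5203 in MI.

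**Figure D5:**
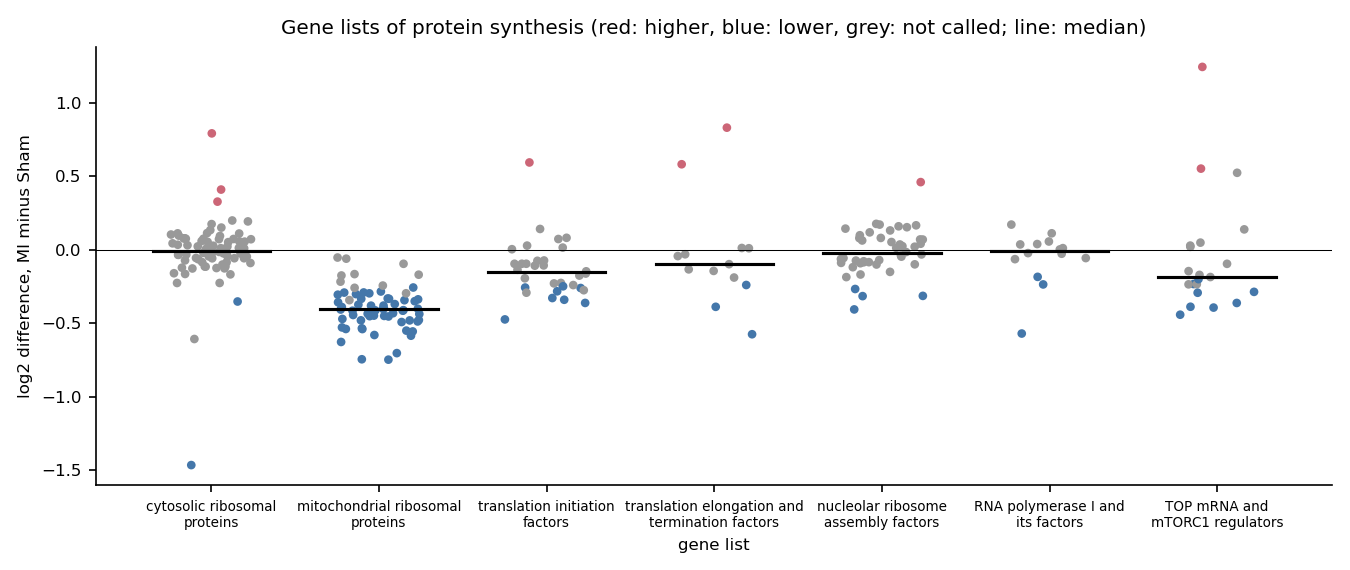
Log2 difference (MI minus Sham, vertical axis) of each tested gene in 7 lists of protein synthesis (horizontal axis), red for higher, blue for lower and grey for not called, with the list median as a line. Most cytosolic ribosomal protein genes lie near 0 (median -0.01), and most mitochondrial ones are lower (median -0.40).

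Ribosomal protein genes have many processed pseudogenes, and how reads shared with them were counted is not given. Over the members a median of 43.2% of the 100-base windows of the transcript also occurred in a transcript of another gene (range 0 to 98.4%). The share was 0 for Rpl3l, 1.75% for Rpl39, 64.7% for Rps2 (36 pseudogenes), 79.4% for Rpl3 (7 pseudogenes) and 88.9% for Rps12. Levels and differences of Rps2, Rpl3 and Rps12 are uncertain to that extent. The same limit holds for the other members with shared windows, and so for paralog ratios and reference genes above. Among these were Rps27 (98.4%), Rpl19 (61.0%), Rpl27 (60.6%), Rps18 (57.3%) and Rpl22l1 (50.8%), while Rpl22, Rps27l and Rpl32 had no shared window. Of 8 members with no shared window 1 was called, of the 68 others 4, and of the 33 with at least 50% shared windows 3.

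Of the ribosomal protein symbols outside the 76, the loci of Rpl41 (log2 difference 0.13 ± 0.10), Rpl36al (0.05 ± 0.10), Rpl8 (-0.13 ± 0.09) and Rps13 (-0.10 ± 0.09) each hold another gene as well. None of these 4 loci was called by limma (smallest adjusted p = 0.283). No value is given for Rpl10l and Rps27rt.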

How the data were processed

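Per the labels' protocols, Trizol RNA was poly(A)-selected and sequenced on an Illumina HiSeq2000 as paired reads. The submitters' processing notes list the build mm9 and the tools HTSeq 0.5.4p2, DESeq, Cufflinks 2.0.2 and TopHat2 2.0.5, without roles. The deposited signal per locus is a read count divided by a size factor: in every library 100% of values were whole multiples of 1 step (tolerance 1e-06), so whole reads were recovered. Neither strandedness nor the handling of multiply matching reads is given in the sources used here. Loci were named by matching exon and intron lengths to GENCODE M21, with no coordinate carried between builds. Transcript lengths are those of the GENCODE principal transcript (the shortest where there are several). Promoters are from RefSeq, GRCm38.p6.

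Groups were compared in R 4.3.3 by limma-trend (limma 3.58.1) on log2(signal + 1), 2-sided, over loci with a mean of at least 10 in 8 samples, tested on simulated data. Adjusted p-values without another name are from this fit. It called 40.9% of loci. Read tests with edgeR 4.0.16 (3 members higher, 2 lower; 7937 loci called) and DESeq2 1.42.0 (3 and 2; 8447 loci) were alternatives. Pairs and library measures used exact permutation tests (scipy 1.17.1). Intervals of 3 reads cover counting error only. The series states biological replicates; no 2 libraries were duplicates.

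Named members were the paralog pairs, the reference genes, the called genes and the 5 highest and 5 lowest per kilobase; for each other list, up to 3 called genes in each direction with the largest change or, with none, the one with the smallest p, with Eef1a1, Eef1a2, Eif4ebp1, Larp1, Mtor and Myc always. Some genes that this rule names are not reported here. Members and lists were chosen with earlier results of these data known.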

Additional observations from a re-analysis of the deposited data

Results flagged for a closer look

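Among 146 groups of 4 hearts examined (named genes by group), 8 held a heart whose gap to its neighbour was large for the range of the group; chance flags about 1 in 20. One is a ribosomal protein gene: Rps27, whose highest Sham heart (replicate 3) held 7295 normalised reads against 5568 to 5764 in the others. For Eif1 the highest Sham heart held 80549 and the lowest MI heart 41928. The lowest MI heart stood apart for Dkc1 (1804), Naca (72875) and Rps6ka1 (1086), the highest MI heart for Rrp12 (10786) and the lowest Sham heart for Tsc2 (23442).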

How the results depend on the processing

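With TMM scaling, other pseudocounts or filters, edgeR, DESeq2 and limma-voom, 3 members rose and 2 fell, the same 5 genes each time. Upper-quartile scaling gave 3 and 6. Scaling to the total gave 62 and 1 (median 0.30), and to the total outside the mitochondrial genome 31 and 1 (median 0.18). Leaving out 1 heart gave 1 to 4 higher and 1 to 3 lower members; Rpl3 and Rpl3l were called each time. The labels name no pairing of the hearts by number, and the correlations do not settle it. Same-number correlations were 0.15, 0.27, 0.16 and -0.00092, and numbers 2 and 3 correlated best with their own number. With the replicate block 3 members rose and 2 fell, the pair ratio of Rpl3l to Rpl3 was -2.26, and no member's call changed. Naming loci through their UCSC identifiers was not run, as no table of symbols for them was used here. Counting depth limits Rpl39l, the member with the lowest mean.

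Some small differences changed sign. Scaled to the total, the log2 differences became 0.30 for Rpl22, 0.14 for Rpl27, 0.29 for Rpl32, 0.18 for Rpl7l1, 0.18 for Rplp0, 0.0805 for Rplp2, 0.18 for Rps15, 0.29 for Rps18, 0.27 for Rps27, 0.0667 for Eif5a, 0.11 for Larp1, 0.0733 for Mtor, 0.12 for Polr1b and 0.0706 for Rrn3. Scaled to the total outside the mitochondrial genome they were 0.19 for Rpl22, 0.0227 for Rpl27, 0.17 for Rpl32, 0.0658 for Rpl7l1, 0.0628 for Rplp0, 0.0636 for Rps15, 0.17 for Rps18, 0.16 for Rps27 and 0.00565 for Polr1b. Upper-quartile scaling gave -0.0384 for Rpl19, -0.0170 for Rpl22l1, -0.0257 for Rpl4 and -0.00417 for Rps27l. Limma-voom gave 0.0245 for Rpl22, 0.00517 for Rpl32 and 0.00902 for Rps18. For Rpl22, TMM scaling gave 0.0151, edgeR 0.0222 and DESeq2 0.00637. Leaving out 1 heart gave ranges of -0.0332 to 0.0468 for Rpl19, -0.0408 to 0.0536 for Rpl22, -0.0516 to 0.12 for Rpl22l1, -0.0827 to 0.0617 for Rpl32, -0.0157 to 0.0622 for Rpl4, -0.0825 to 0.0614 for Rps18, -0.10 to 0.0590 for Rps27, -0.000891 to 0.13 for Rps27l and -0.0114 to 0.0953 for the ratio of Rpl22l1 to Rpl22. The cause of these changes was not tested.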
